A study of Homo sapiens with 8 samples.

Results

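The MYC, MAX and MXD network comprises transcription factors that share a basic helix-loop-helix leucine zipper. The 10 genes examined here, MYC, MYCN, MYCL, MAX, MXD1, MXD3, MXD4, MXI1, MNT and MLX, were taken as a fixed list of family members from 20033 annotated protein-coding genes. H3K27ac peaks were collected for each gene over its body with flanks of 50 kb, and for MYC also with flanks of 500 kb. These windows held 145 of the 53053 peaks in the 4 lists. H3K27ac is acetylated lysine 27 of histone H3, a mark of active promoters and enhancers, measured by chromatin immunoprecipitation and sequencing (ChIP-seq). The cells were pancreatic progenitors (PPs) derived from a single human embryonic stem cell line, labelled MEL1. The study's methods name its MEL1 cells as the INS GFP/W line, a reporter line with GFP at the insulin gene. All groups grew in EF6, a DMEM medium with B27, EGF, bFGF and 616452, a TGFβ receptor inhibitor. The DMSO group (2 libraries) received the solvent, and the I-BET151 group (2 libraries) received 1 μM I-BET151 for 7 days. I-BET151 blocks the bromodomains through which BET proteins bind acetylated histones. The labels number the libraries of a group but do not say whether they came from separate differentiations, so their spread may be technical.

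In this network MAX is the shared partner. MYC, MYCN and MYCL dimerise with MAX, bind E-boxes with the core CACGTG and activate genes for growth, ribosome production and metabolism. MXD1, MXD3, MXD4, MXI1 and MNT compete for MAX, and their dimers recruit SIN3 and histone deacetylases and repress the same kind of target. MLX is a MAX-like partner that joins some MXD proteins, MNT and the glucose-responsive factors MLXIP and MLXIPL. MYC is a widely used readout of BET inhibition, because in many tumour cells its transcription depends on BET proteins.

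The promoter sequences below show which network genes carry the network's own binding motif next to their start. They are taken from RefSeq (build GRCh38.p14), which had 12 start sites for 9 of the 10 members. Only bases upstream of the RefSeq start that lie outside annotated exons of the gene are printed, on the strand of the gene, and capitals mark CACGTG, which reads the same on both strands. MNT, MLX and MXD4 are shown because they hold the motif in the 250 bases before the start, and MAX, which lacks it before both of its RefSeq starts, because its promoter peak separated the groups. The MAX stretch precedes the internal start, downstream of the canonical one, and overlaps that peak.
MNT, chr17:2401105-2401310, minus strand: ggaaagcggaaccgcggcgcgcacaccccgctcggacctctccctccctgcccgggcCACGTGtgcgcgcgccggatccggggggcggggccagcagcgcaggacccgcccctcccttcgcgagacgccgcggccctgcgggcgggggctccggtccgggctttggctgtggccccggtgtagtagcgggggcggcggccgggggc
MLX, chr17:42566850-42567071, plus strand: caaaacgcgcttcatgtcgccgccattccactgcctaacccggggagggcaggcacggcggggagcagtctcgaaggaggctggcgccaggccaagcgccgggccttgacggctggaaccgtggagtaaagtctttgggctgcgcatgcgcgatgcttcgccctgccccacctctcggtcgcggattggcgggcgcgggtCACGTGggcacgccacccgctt
MXD4, chr4:2262110-2262359, minus strand: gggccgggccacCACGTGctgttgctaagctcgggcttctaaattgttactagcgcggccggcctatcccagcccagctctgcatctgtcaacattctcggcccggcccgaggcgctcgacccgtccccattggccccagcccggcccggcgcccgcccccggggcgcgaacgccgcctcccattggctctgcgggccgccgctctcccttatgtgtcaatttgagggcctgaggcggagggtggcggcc
MAX, chr14:65101686-65101934, minus strand: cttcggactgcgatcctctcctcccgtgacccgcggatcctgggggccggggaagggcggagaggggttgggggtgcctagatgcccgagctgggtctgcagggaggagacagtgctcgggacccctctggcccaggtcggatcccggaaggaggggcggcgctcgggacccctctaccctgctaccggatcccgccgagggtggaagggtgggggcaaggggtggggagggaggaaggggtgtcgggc
The motif stood in 6.34% of all 35116 promoters of this length, and in 3 of the 12 member promoters. It began at position −193 from the start in MNT, −50 in MLX and −238 in MXD4. In MNT the motif (chromosome 17, 2401248 to 2401253) lay inside a peak in both DMSO libraries and outside every peak in both I-BET151 libraries. In MLX (chromosome 17, 42567050 to 42567055) it lay inside a peak in replicate 2 of each group only. In MXD4 (chromosome 4, 2262342 to 2262347) it fell in the gap between flanking peaks in all 4 libraries. A match shows only that these letters are present.

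The labelled cell type was checked against promoter peaks. Of 9 pancreatic progenitor markers, 8 had a promoter peak in all 4 libraries (among them PDX1, NKX6-1, SOX9, FOXA2, ONECUT1, GATA4 and GATA6), and PTF1A had none. No library had a promoter peak at the 4 endocrine, 2 hepatic, 2 pluripotency and 3 mesenchymal markers, whereas the intestinal marker CDX2 had one in all 4. Of 3 acinar markers, CPA1 had one in all 4 libraries, and PRSS1 and CELA3A had none. The lists held 12312 to 14248 peaks, with the shortest from I-BET151 replicate 2, and covered 9.87 and 9.91 Mb in DMSO and 8.62 and 9.19 Mb in I-BET151. Read depth is not given in the lists. List length thus differed with the treatment, and its part in the results below was not tested.

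Covered length, the number of bp inside peaks, was lower in both I-BET151 libraries than in both DMSO libraries at 7 of the 10 loci (MAX, MXD1, MXD3, MXD4, MXI1, MNT and MLX). It was higher in both at 2 loci, MYC and MYCL, and the groups overlapped at MYCN. Of 15190 protein-coding genes with a peak in the same window, 44.4% were lower and 12.5% were higher. Averaged over the 10 loci, the DMSO libraries had 2469 and 2513 bp, and the I-BET151 libraries 2321 and 1984 bp. The group means were 2491 ± 31.3 bp in DMSO and 2153 ± 238 bp in I-BET151 (SD, n = 2 each), a difference of −338 bp, or −170 bp without I-BET151 replicate 2. Over all genes with a peak the mean difference was −270 bp. The median difference was −411 bp over the members and −94.0 bp over all genes. For a single locus, 2 libraries per group cannot give less than p = 0.33 in the two-sided exact permutation test, which is the value for each of these 9 loci. With the 12312 top-ranked peaks of each list, 3 members were lower (MXD3, MXD4 and MNT) and 3 were higher (MYC, MYCL and MXI1), against 38.3% and 15.4% of all genes.

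**Figure D1:**
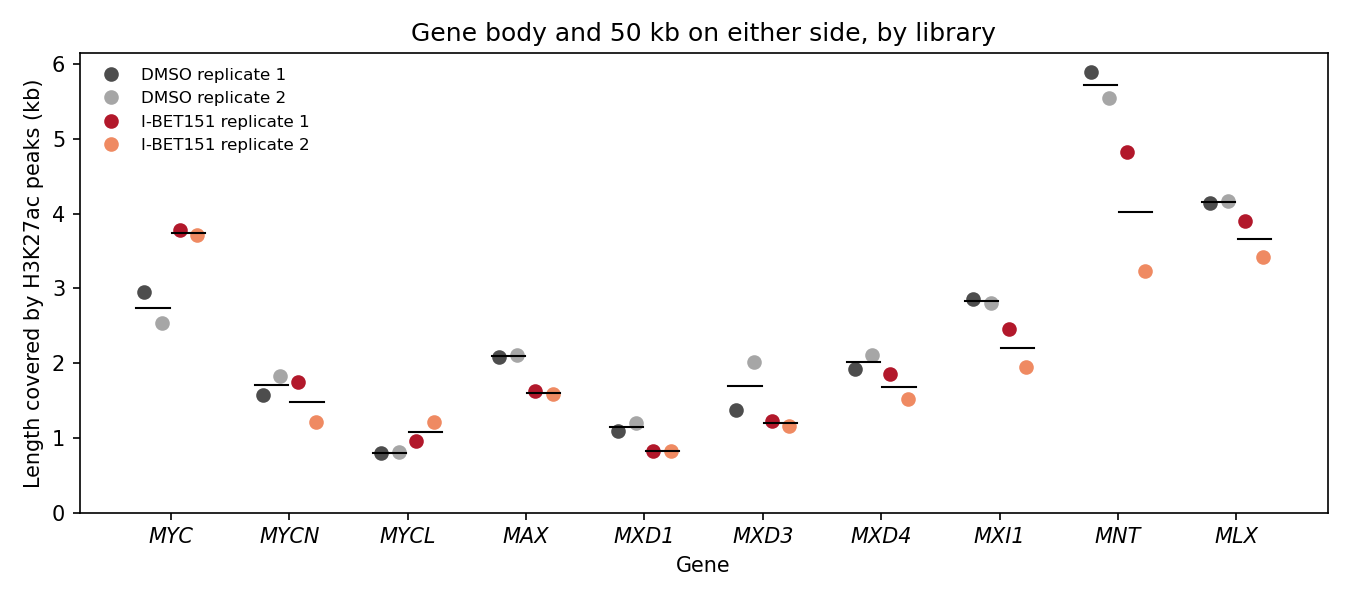
Length covered by H3K27ac peaks (kb) over each network gene with flanks of 50 kb, with 1 point per library and a bar at each group mean (n = 2). MYC and MYCL are higher in both I-BET151 libraries, MYCN overlaps, and the other 7 genes are lower.

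MYC, on chromosome 8 (127735434 to 127742951), was covered by longer and stronger peaks after I-BET151 treatment. Peaks covered 2951 and 2537 bp in DMSO replicates 1 and 2, and 3779 and 3714 bp in I-BET151 replicates 1 and 2. The groups did not overlap, and the means were 2744 ± 293 and 3746.5 ± 46.0 bp (SD, n = 2 each), a difference of 1002.5 bp (exact permutation p = 0.33). All of it lay in 2 regions, and the 50 kb window held no others. The first (127735059 to 127736616) spans the canonical start, with its strongest summit 140 bp downstream in the untranslated part of exon 1. Its fold enrichment, the authors' ratio of the summit over local background, was 3.31 and 7.96 in DMSO and 15.2 and 9.95 in I-BET151. The second region (127736916 to 127739136) had its summit in intron 1, 1756 bp from the start. There the fold was 4.02 and 6.50 in DMSO and 9.55 and 14.0 in I-BET151. Both regions were called in all libraries, and in both every I-BET151 value exceeded every DMSO value. Each was also broken into shorter peaks in 1 DMSO library, whereas both I-BET151 libraries had 1 continuous peak over each. The lncRNA CASC11 runs antisense through both regions, and ChIP does not tell the strands apart.

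The position of the MYC peaks within their lists moved in the same direction. With peaks ordered from the strongest to the weakest by −log10 p, the strongest MYC peak stood at 72.0 and 46.0% of the DMSO lists and at 11.6 and 5.26% of the I-BET151 lists. Its −log10 q was 15.6 and 30.0 in DMSO and 75.5 and 85.1 in I-BET151. The strongest peak was not the same region in every library. It lay at the canonical start in DMSO replicate 2 and I-BET151 replicate 1, and in intron 1 in DMSO replicate 1 and I-BET151 replicate 2. Within 500 kb on either side, which takes in 22 annotated genes, only 2 more regions were found, both downstream and none upstream. The nearer (127794092 to 127794789) had its summit 205 bp before the annotated start of PVT1, a lncRNA gene next to MYC. Peaks covered 581 and 536 bp of it in DMSO, against 621 and 629 bp in I-BET151, with folds of 3.12 and 2.60 against 5.14 and 5.94. This region too was higher in both I-BET151 libraries in length and in fold. The farther one lay inside PVT1, 59724 bp from its start (127854006 to 127854450), and was called in both DMSO libraries and in I-BET151 replicate 2 but not in I-BET151 replicate 1. Over the full 500 kb window peaks covered 3886 and 3518 bp in DMSO, against 4400 and 4768 bp in I-BET151, a difference of 882 bp (exact permutation p = 0.33). No peak lay in the upstream stretch, which holds POU5F1B, CASC8, CCAT2 and part of PCAT1.

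The other MYC family genes differed from MYC and from each other. MYCN (chromosome 2, 15940550 to 15947007), the paralogue prominent in neural and embryonic tissue, was covered over 1571 and 1831 bp in DMSO and 1752 and 1218 bp with I-BET151. The groups overlapped (exact permutation p = 0.67). A region over intron 1 was missing from I-BET151 replicate 2, the library in which the stronger region over coding exon 2 had its highest fold. That fold was 6.22 and 5.10 in DMSO and 6.17 and 13.9 in I-BET151, so the higher mean rested on 1 library. MYCL (chromosome 1, 39895428 to 39902256), a paralogue first found amplified in lung cancer, was covered over 792 and 806 bp in DMSO, against 954 and 1216 bp in I-BET151, a difference of 286 bp, or 155 bp without I-BET151 replicate 2. It had peaks within 3 kb of its own starts over 288 and 377 bp in DMSO and 464 and 793 bp with I-BET151. This promoter difference of 296 bp was 132 bp without I-BET151 replicate 2 and 460.5 bp without I-BET151 replicate 1, and 289 bp of the length in I-BET151 replicate 2 came from a peak in coding exon 1 that no other library had. Its promoter fold did not separate the groups (2.37 and 4.04 against 5.23 and 3.55). The remaining peak of the MYCL window belonged to the promoter of TRIT1, a tRNA-modifying enzyme gene, at 429 to 504 bp in DMSO and 423 to 490 bp in I-BET151.

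**Figure D2:**
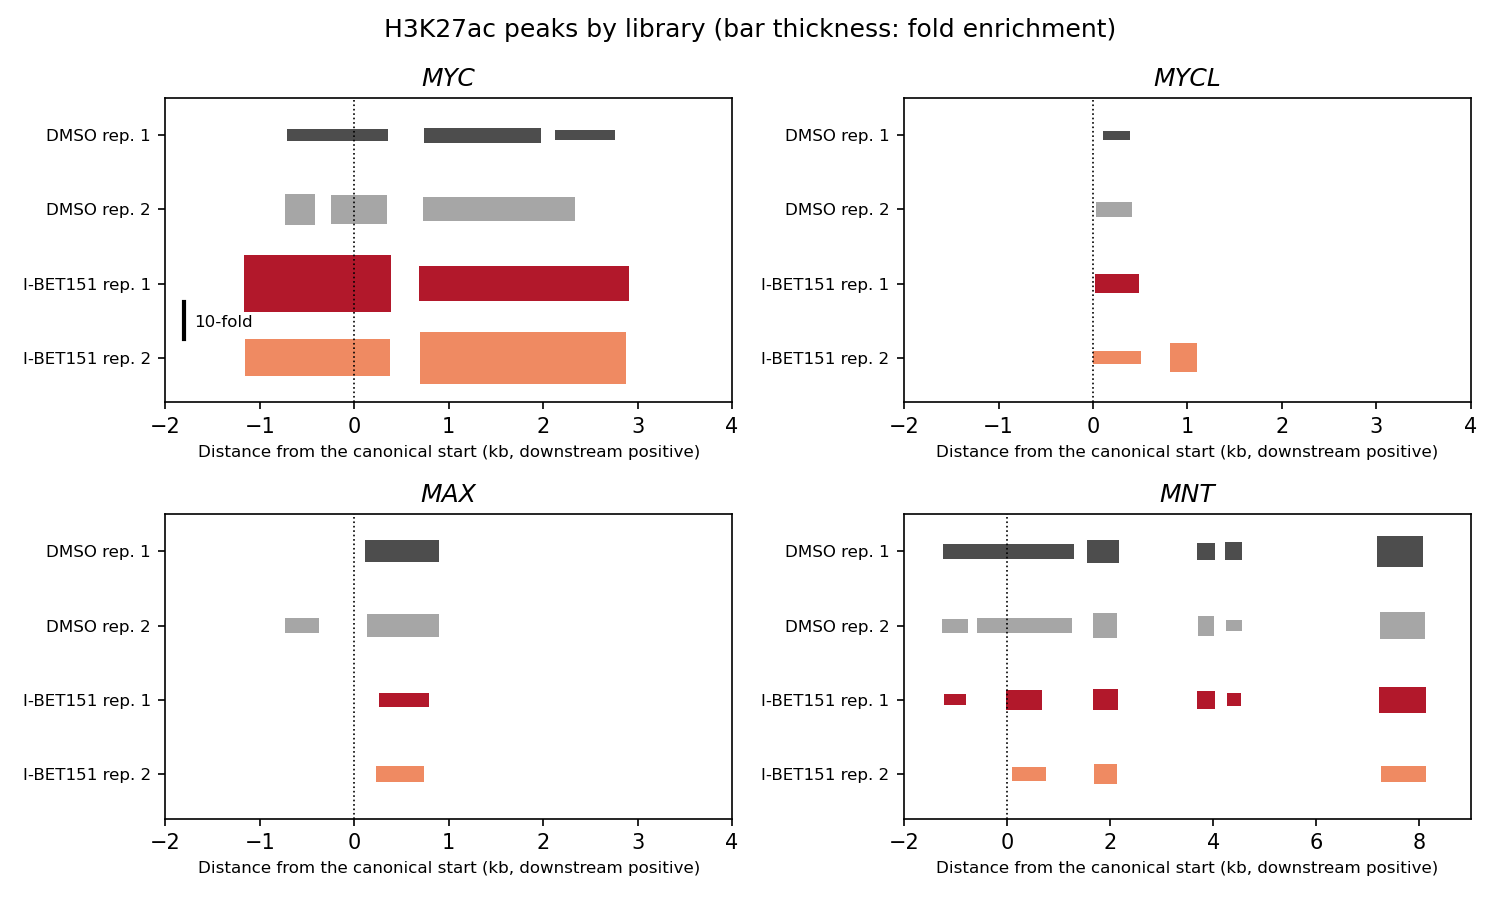
H3K27ac peaks around the canonical start (dotted line) of MYC, MYCL, MAX and MNT in each of the 4 libraries. The x axis is the distance from the start in kb, positive downstream, and the thickness of a bar is the fold enrichment at the summit (scale bar, 10-fold). MYC peaks are longer and thicker in I-BET151, MAX peaks are shorter and thinner, and the long MNT peak at the start is shorter in I-BET151.

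MAX, the common dimer partner, had a narrower and lower promoter peak after I-BET151 treatment. The gene lies on chromosome 14 (65006174 to 65102695, minus strand). The promoter region in intron 1 (65101617 to 65102402) was covered over 786 and 764 bp in DMSO, against 530 and 515 bp in I-BET151. Its fold was 6.00 and 6.38 in DMSO and 3.64 and 4.08 in I-BET151, and the peak moved from 39.0 and 40.6% of the DMSO lists to 84.3 and 83.2% of the I-BET151 lists. The replicates of each group lay close together, and the groups did not overlap in length, fold or position. A further peak upstream (65102892 to 65103247, fold 4.03) was seen in DMSO replicate 2 alone. With it, promoter covered length differed by −430.5 bp, and by −264 bp without that library. The peaks at the neighbouring promoters of RAB15 and FNTB overlapped between the groups in fold. Over the whole MAX window the difference was −493 bp, but −124 bp with overlapping groups when only the 12312 top-ranked peaks of each list were used.

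Among the MXD repressors, MXD1 and MXI1 had shorter coverage at their own promoters. MXD1 (chromosome 2, 69897688 to 69942945), which is induced when many cells differentiate, had 1089 and 1195 bp in DMSO and 828 and 826 bp with I-BET151. Of its 2 promoter regions, the upstream one (69914117 to 69914608) overlapped in length, at 488 and 460 bp in DMSO, against 479 and 428 bp in I-BET151. Its fold was 7.18 and 5.63 in DMSO and 7.50 and 7.70 in I-BET151, higher by 1.20 but by 0.424 without DMSO replicate 2 and by 1.97 without DMSO replicate 1. The region over coding exon 1 (69915130 to 69915864) was the shorter one in I-BET151, with 349 and 398 bp against 601 and 735 bp in DMSO. MXD1 therefore combined a shorter downstream region with an upstream fold that was slightly higher in I-BET151. The groups overlapped with the 12312 top-ranked peaks of each list (−189 bp, against −315 bp with all peaks).

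MXI1 (chromosome 10, 110207605 to 110287365), also known as MXD2, has 38 annotated transcripts with starts spread over its first intron. Peaks near these starts covered 2120 and 2100 bp in DMSO and 1732 and 1241 bp with I-BET151. The difference of −623.5 bp was −378 bp without I-BET151 replicate 2. The peak at the canonical start was slightly longer in I-BET151 (451 and 421 bp, against 414 and 344 bp in DMSO). The shorter coverage lay at the internal starts, such as that 18532 bp into the gene (110225910 to 110226722), with 489 and 813 bp in DMSO, against 392 and 348 bp in I-BET151. A region 19686 bp into the gene (110227110 to 110227422) had folds of 5.07 and 3.10 in DMSO and was called in neither I-BET151 library. It was the single region at the 10 loci found in both DMSO libraries and in no I-BET151 library. That is 1 of 40 regions, or 2.50%, against 8.60% of all 15752 regions, and 0 of the 40 showed the opposite pattern, against 2.81% of all regions. The single region became 5 without I-BET151 replicate 1, 4 without DMSO replicate 1 and 2 without DMSO replicate 2, when 12.2%, 13.5% and 11.7% of all regions met the same rule. Restricted to the 12312 top-ranked peaks of each list, the MXI1 window had 1940 and 1860 bp in DMSO, against 2066 and 1950 bp in I-BET151, so the difference turned to 108 bp.

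At MXD3 and MXD4 most of the lower coverage lay away from the gene's own starts. MXD3 (chromosome 5, 177301461 to 177312757, minus strand), which is linked to proliferating progenitors, had 1 promoter peak in DMSO replicate 2 (256 bp, fold 2.49) and none in the other libraries. The window held 1370 and 2014 bp in DMSO, against 1231 and 1164 bp in I-BET151. The difference of −494.5 bp was −172.5 bp without DMSO replicate 2 and −816.5 bp without DMSO replicate 1. A distal peak of 381 bp (177328121 to 177328501) was also called in DMSO replicate 2 alone. The promoters of RAB24 and LMAN2 held the rest, with 691 and 719 bp in DMSO against 629 and 592 bp in I-BET151 at RAB24, and 679 and 658 bp against 602 and 572 bp at LMAN2. At RAB24 the fold was 6.60 and 7.71 in DMSO and 3.60 and 5.09 in I-BET151. At LMAN2 it was instead higher in both I-BET151 libraries, with 4.85 and 6.25 in DMSO and 6.60 and 6.73 in I-BET151. MXD4 (chromosome 4, 2247432 to 2262109, minus strand) was covered near its start over 1503 and 1561 bp in DMSO and 1559 and 1519 bp with I-BET151. These values overlapped, and its promoter fold did too (7.46 and 10.1 against 8.24 and 8.69). This fold mixes peaks, with an intron 1 peak in I-BET151 replicate 1 and a peak upstream of the start otherwise. The upstream peak had a fold of 7.91 in I-BET151 replicate 1, so it overlapped as well. The intron 1 peak, with its strongest summit 41 bp from an annotated start, had folds of 5.45 and 5.54 in DMSO. In I-BET151 its folds were 8.24 and 9.32. The lower value for the whole MXD4 window, −328.5 bp, came from a peak at the POLN promoter of 422 and 546 bp in DMSO, 297 bp in I-BET151 replicate 1 and none in I-BET151 replicate 2. It was −160 bp without I-BET151 replicate 2 and −497 bp without I-BET151 replicate 1.

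MNT, a widely expressed MAX-binding repressor, had the largest difference in covered length among the 10 members in bp. It lies on chromosome 17 (2384073 to 2401104, minus strand), and peaks within 3 kb of its starts covered 4734 and 4297 bp in DMSO, against 3177 and 1979 bp in I-BET151. The means were 4515.5 ± 309 and 2578 ± 847 bp (SD, n = 2 each), a difference of −1937.5 bp (exact permutation p = 0.33). Much of it lay in the region at the canonical start (2399771 to 2402315), which holds the CACGTG motif printed above. There 2537 and 2328 bp were covered in DMSO, against 1134 and 647 bp in I-BET151, while the fold at the summit was 4.09 and 4.03 against 5.44 and 4.00. The region was thus shorter in both I-BET151 libraries, while the summit fold overlapped between the groups. A pair of small regions in intron 1, at 4381 and 3869 bp from the start, was called in both DMSO libraries and in I-BET151 replicate 1 but not in I-BET151 replicate 2. The strongest MNT peak was an internal one over intron 4 (2392921 to 2393881), with folds of 8.22 and 7.40 in DMSO and 6.96 and 4.34 in I-BET151. This difference of −2.16 was −0.851 without I-BET151 replicate 2 and −3.47 without I-BET151 replicate 1. Over the whole 50 kb window the difference was −1693.5 bp, and −892 bp without I-BET151 replicate 2.

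MLX (chromosome 17, 42567072 to 42573239) had a lower promoter fold in I-BET151 with a similar covered length. The fold of its strongest promoter peak was 6.75 and 8.15 in DMSO and 4.34 and 4.46 in I-BET151, a difference of −3.05 (exact permutation p = 0.33). The peak moved from 22.5 and 18.2% of the DMSO lists to 56.7 and 56.3% of the I-BET151 lists. Promoter covered length overlapped, at 1003 and 1188 bp in DMSO and 895 and 1064 bp with I-BET151. At the adjacent promoter of COASY, a coenzyme A synthesis gene, the fold was also lower (9.04 and 7.16 against 5.47 and 3.79). It was higher at the promoters of HSD17B1 (5.18 and 3.28 against 6.89 and 5.43) and NAGLU (8.50 and 5.57 against 8.72 and 8.91). At PSMC3IP it was 2.74 in DMSO replicate 2, with no peak in DMSO replicate 1, against 6.30 and 4.53 in I-BET151. At RETREG3 the groups overlapped, and TUBG1 had a peak in DMSO replicate 1 only. The window is gene-rich, with 7 regions, 6 of them at promoters of other genes. Its covered length was lower in I-BET151 by −499 bp, by −260.5 bp without I-BET151 replicate 2, and not with 10 kb on either side, where the difference was 47.5 bp.

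Separating each gene's own promoters from the rest of its window changed the picture. Near their own starts, 4 members had less covered length in both I-BET151 libraries (MAX, MXD1, MXI1 and MNT), 2 had more (MYC and MYCL) and 4 overlapped (MYCN, MXD3, MXD4 and MLX). Of 11281 protein-coding genes with peaks near a start, 37.0% had less and 14.0% had more. In the rest of the window MYC, MYCN and MXD1 had no peak in any library, so they could not differ. Of the other members 2, MXD3 and MXD4, had less and 0 had more. The shares were 45.8% and 11.2% of the 11764 genes with a peak there. The mean promoter coverage over the 10 genes was 1625 ± 29.5 bp in DMSO and 1379 ± 131 bp in I-BET151 (SD, n = 2 each). The median change was −20.1% over the members and −4.79% over all genes.

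**Figure D3:**
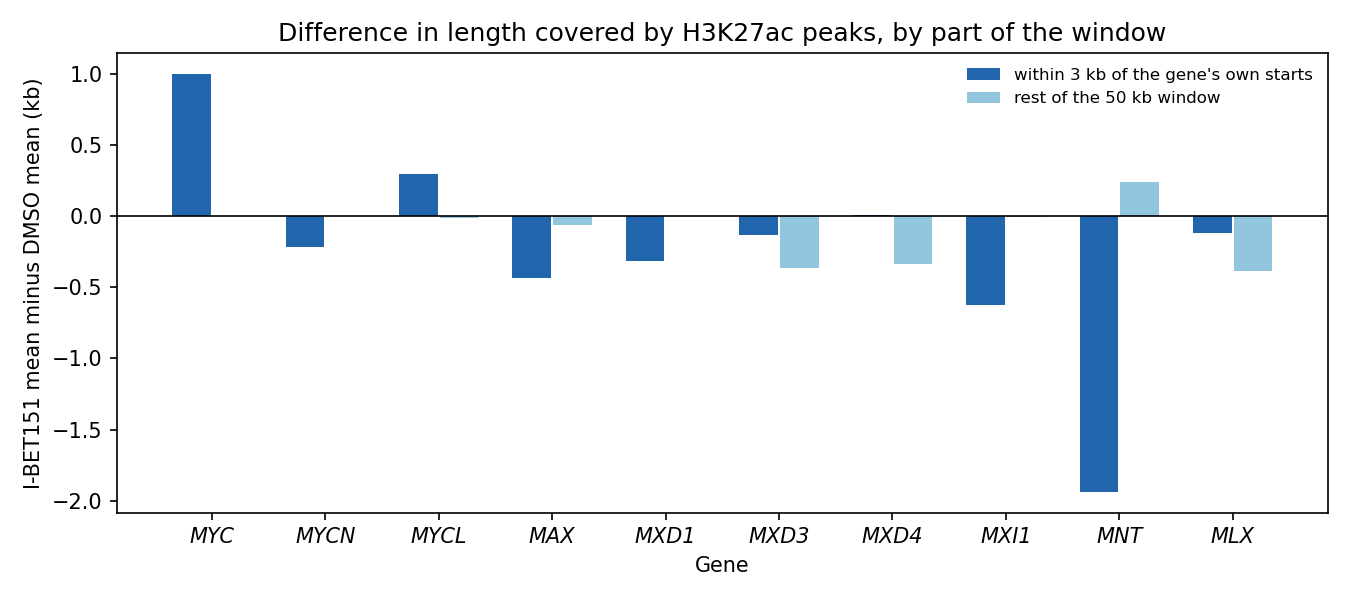
Difference in covered length between the I-BET151 and DMSO means (kb, n = 2 libraries per group), divided into sequence within 3 kb of the gene's own annotated starts (dark bars) and the rest of the 50 kb window (light bars). The differences of MYC, MYCL, MAX, MXD1, MXI1 and MNT lie mainly at their own starts, and those of MXD3, MXD4 and MLX mainly elsewhere.

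Promoter fold gave a partly different order. Among the 9 members with a promoter peak in all 4 libraries, the fold was lower in both I-BET151 libraries at 3 (MAX, MNT and MLX) and higher at 2 (MYC and MXD1). The same was true of 15.7% and 24.7% of 9400 genes. The mean at MYC was 5.99 ± 2.78 in DMSO and 14.6 ± 0.847 in I-BET151 (SD, n = 2 each), a ratio of 2.43. These MYC values mix the start region (DMSO replicate 2, I-BET151 replicate 1) and the intron 1 region (DMSO replicate 1, I-BET151 replicate 2). At MAX the mean fold was 6.19 ± 0.271 and 3.86 ± 0.311, a ratio of 0.624, and at MLX 7.45 ± 0.986 and 4.40 ± 0.0851, a ratio of 0.590. At MNT the ratio was 0.724. MYC, MAX and MNT were the members whose groups did not overlap in either promoter length or fold and whose length and fold went the same way. At MNT, however, length and fold came from different regions. Much of the lower length lay in the region at the canonical start, where the fold overlapped between the groups. The lower fold was that of the intron 4 peak, where covered length overlapped (902 and 885 bp in DMSO, 927 and 885 bp in I-BET151). Among the 9400 genes 10.3% were lower in both measures and 7.33% were higher in both. Over whole lists the median fold was 5.87 and 6.29 in DMSO and 6.37 and 6.42 in I-BET151, and its part in these values was not tested.

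**Figure D4:**
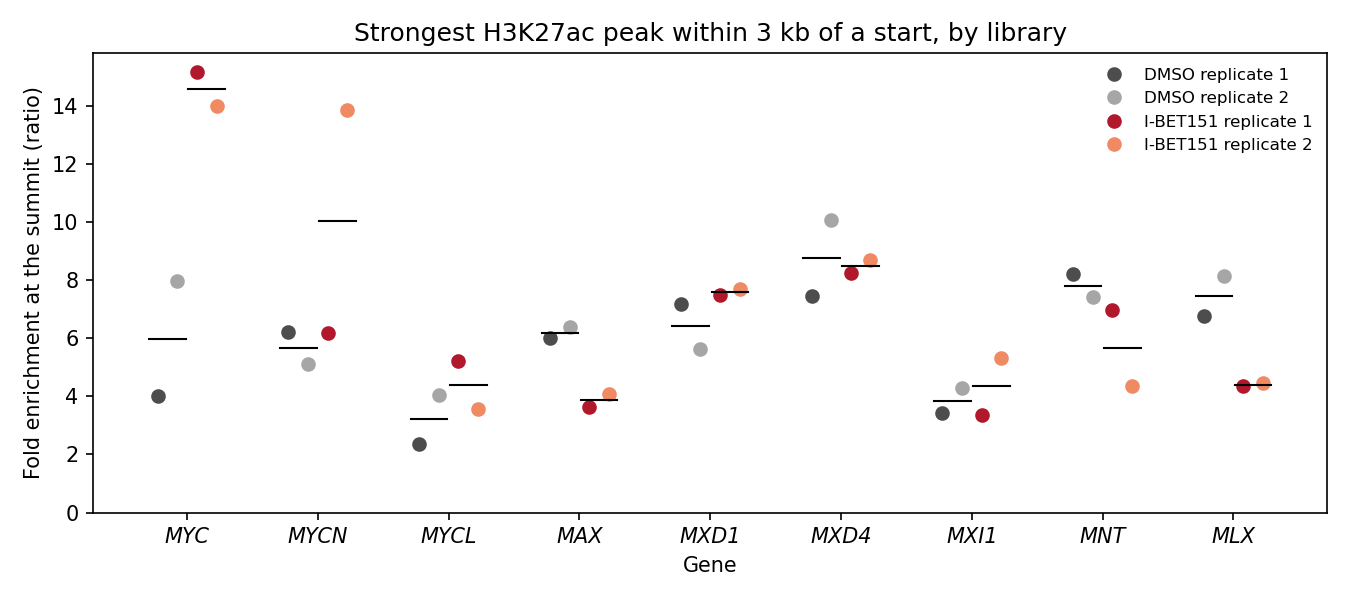
Fold enrichment at the summit of the strongest H3K27ac peak within 3 kb of a start, for the 9 genes with such a peak in every library. There is 1 point per library and a bar at each group mean (n = 2). MYC is highest in both I-BET151 libraries (14.0 and 15.2), and MAX, MNT and MLX are lower in I-BET151.

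Further genes of the pathway were read from lists by function. Their counts are to be read against the 44.4% lower and 12.5% higher over all genes. The 3 remaining network members, MGA, MLXIP and MLXIPL, were all lower in both I-BET151 libraries, with MLXIP at 1419 and 1386 bp in DMSO, against 1062 and 689 bp in I-BET151. MGA, a MAX-binding repressor, had 1591 and 1144 bp in DMSO and 1013 and 1014 bp with I-BET151. MLXIPL, which drives lipogenic genes in liver, had 1883 and 1873 bp against 1366 and 1686 bp. Of 11 MYC cofactors 4 were lower and none higher, led by PAF1 of the elongation complex (8057 and 7581 against 6502 and 5764 bp), then EP400 and ZBTB17. Of 9 genes for MYC turnover 3 were lower and 1 was higher. USP36, a deubiquitinase that stabilises MYC, had 4296 and 4226 bp in DMSO, against 2540 and 2501 bp in I-BET151. SKP2, an F-box protein of a MYC ubiquitin ligase, was also lower. Of 9 corepressor genes of MXD and MNT 4 were lower and none higher, with SIN3A at 4121 and 4457 against 3187 and 2960 bp. HDAC1 was also lower.

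MYC target genes went both ways. Of 16 targets 6 were lower, 4 were higher and 6 overlapped, and their median change was −1.33%, against −7.54% over all genes. NPM1, a nucleolar ribosome assembly factor, had 2741 and 2564 bp in DMSO and 4228 and 4417 bp with I-BET151. TFAP4, a cell cycle regulator, had 5111 and 5132 bp in DMSO, against 6214 and 5703 bp in I-BET151. IMPDH2, which makes guanine nucleotides, was lower, with 5239 and 4716 bp against 4128 and 4110 bp. Of the 3 targets of MLX and MLXIP, TXNIP, an inhibitor of glucose uptake, was higher (855 and 877 against 1104 and 1212 bp), PKLR was lower (4906 and 4587 against 4366 and 3872 bp), and ARRDC4 overlapped. These windows include neighbouring genes, and the counts are to be read against the 44.4% lower and 12.5% higher over all genes.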

How the data were processed

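H3K27ac was measured in 4 ChIP-seq libraries of PPs (2 DMSO, 2 I-BET151), and the 4 input libraries were not analysed here as separate samples. The authors aligned reads to hg38 with Bowtie2 (2.2.5 in the submitters' processing notes), removed duplicates and mitochondrial reads, and called peaks per library with MACS2 (2.1.2) at default settings. Deposited values were the peak interval, its summit, a fold enrichment (a ratio), −log10 of the p-value and q-value, and a score, which was not used. The lists hold no counts, so weaker acetylation under the threshold counts as absent.

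Peaks outside chromosomes 1 to 22, X and Y were left out, coordinates are 1-based, and genes come from GENCODE release 44. Covered length is the merged peak length in a window. The strongest promoter peak is the one with the highest −log10 p within 3 kb of an annotated start. Peaks sharing 1 bp were merged into regions. Single values were tested by exact permutation of the libraries (two-sided, 6 assignments). Calculations used Python 3.11.15 and pandas 2.3.3, and the interval code was tested on simulated data. Replicate lists differed (Jaccard index 0.831 in DMSO, 0.821 in I-BET151). All 10 members are named, and from each further list at most the 3 non-overlapping genes with the largest difference. Some items that this rule or the marker lists select are not reported here. The members and lists were chosen with earlier results of these data known. Alternatives changed the window, threshold, list length, merging, overlap, promoter distance, pairing and libraries.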

Additional observations from a re-analysis of the deposited data

How the results depend on the processing

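With the 12312 top-ranked peaks per list, the mean difference over the 10 loci was −128 bp, 3 members were lower, the MYC difference within 500 kb was 1865.5 bp, and 0 regions were lost (called in both DMSO libraries only) and 2 gained (the opposite). MXI1 was then reversed (108 bp), and MLX was reversed with 10 kb on either side (47.5 bp). Lost regions numbered 3 with 100 kb on either side, 0 when peaks within 500 bp were merged and 3 when 50% of a region had to be covered. Gained regions numbered 1 with a −log10 q of at least 5. For these settings and for the top-ranked peaks, the shares over all regions are not given here. Their counts of lost and gained regions therefore show only that the counts depend on the setting. When each library was left out in turn, the mean difference ranged from −506 to −170 bp. Of 40 regions at the loci, lost regions ranged from 1 to 5 and gained regions from 0 to 2 (2 without I-BET151 replicate 2). Over all regions the shares were 10.4 to 13.5% lost and 3.78 to 5.95% gained (5.95% without I-BET151 replicate 2). The causes were not tested. Of 204 recomputed values for 29 other results, 190 moved by less than the replicate SD, 12 moved further and the 2 named were reversed. Among the 190, 6 values of members whose groups overlapped changed sign, for example covered length at MYCN (51.0 bp without I-BET151 replicate 2). Replicate numbers were not shown to pair libraries (correlation of same-numbered deviations over genes 0.110). The replicate block left the mean difference at −338 bp, and in both pairs 7 members were lower and 2 higher, against 52.6% and 17.4% of all genes. With 2 libraries per group the exact permutation p cannot go below 0.33, and lists without counts cannot show changes under the peak threshold.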
